A study of Homo sapiens with 8 samples.

Results

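Aminoacyl-tRNA synthetases, the enzymes that load each tRNA with its amino acid, were followed in a human glioblastoma cell line, and the genes of the cytosolic enzymes were compared with those of the mitochondrial ones. The members were a list of 36 gene symbols, and 34 of these were among the 13036 genes of the deposited table, namely 19 of 20 cytosolic and 15 of 16 mitochondrial enzymes. VARS1 and VARS2 were not analysed here. GARS1 and KARS1, each of which encodes both a cytosolic and a mitochondrial enzyme, were counted as cytosolic. All 34 passed the filter on low values.

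RNA was sequenced from LN229-TAZ(4SA), cells of the glioblastoma line LN229 named for a form of TAZ. TAZ is a co-activator of transcription that the Hippo pathway restrains. Every group carried this name, and no library of unmodified LN229 was used here. There were 4 groups of 2 libraries: cells in regular medium without AF collected at 1 h, the same at 7 h, cells given AF at 1 µM in medium without glucose collected at 1 h, and the same at 7 h. AF appears in the labels as this abbreviation alone, and the title of the series concerns inhibition of thioredoxin reductase 1 in glucose-starved cells. AF and the loss of glucose came together, so their separate effects cannot be told apart. Cells without glucose and with AF are called treated below.

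A cytosolic synthetase charges the tRNAs that feed the ribosomes of the cytosol, while a mitochondrial synthetase, also encoded in the nucleus and imported, serves the ribosomes that translate the few proteins of the mitochondrial genome. For most amino acids separate genes encode these enzymes. Several cytosolic synthetases are held together with scaffold proteins in the multisynthetase complex, and others act alone. Several cytosolic synthetase genes are known targets of ATF4, the transcription factor of the amino acid and integrated stress response, which can bind C/EBP-ATF response elements.

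The promoter windows in the RefSeq table (GRCh38.p14, from 250 bases before to 50 bases after the start) were searched on both strands for TGATGNAA, the core of the C/EBP-ATF response element. Windows were found for 30 of the 34 members. The table used here had none for AARS2, LARS1, TARS3 and YARS1. The core was present in 7 of 16 cytosolic genes with a window (43.8%), in 1 of 14 mitochondrial genes (7.14%) and in 1217 of all 27305 genes with a window (4.46%). A gene with several windows counted once if any held the core. The set of all genes was not limited to the 13036 of the deposited table, unlike the members. Counted by single windows, the core was in 7 of 21 cytosolic (33.3%), 1 of 18 mitochondrial (5.56%) and 1270 of all 35116 windows (3.62%). The cytosolic genes with a match were GARS1, CARS1, TARS1, AARS1, IARS1, MARS1 and NARS1, and the mitochondrial gene was YARS2. For comparison, the cAMP response element TGACGTCA was in 0 of 16 cytosolic, 0 of 14 mitochondrial and 614 of all genes (2.25%). The search for TGATGNAA fixes every letter except N, so its matches are alike by design and can differ only there. The windows below surround the match in the 5 genes with the largest rise at 7 h among those that hold it. Each is written 5′ to 3′ on the strand of its gene, with the match, here on the opposite strand, in capitals.
GARS1: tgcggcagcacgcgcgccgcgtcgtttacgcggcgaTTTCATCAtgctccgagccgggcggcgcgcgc
CARS1: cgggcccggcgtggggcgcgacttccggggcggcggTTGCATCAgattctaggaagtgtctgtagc
TARS1: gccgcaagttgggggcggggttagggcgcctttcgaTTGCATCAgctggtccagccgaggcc
AARS1: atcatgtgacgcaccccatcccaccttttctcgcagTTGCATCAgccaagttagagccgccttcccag
IARS1: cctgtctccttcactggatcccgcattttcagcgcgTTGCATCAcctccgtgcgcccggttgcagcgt
The GARS1 window lies at chr7:30594809-30594876 on the plus strand, and its match begins 33 bases before the start of that window's transcript, which is 143 bases downstream of the outermost start of the gene. That of CARS1 lies at chr11:3057396-3057461 on the minus strand, with the match 2 bases before the start. In TARS1, at chr5:33440931-33440992 on the plus strand, the match begins at base 3 of the window's transcript, whose start is 269 bases downstream of the outermost start of the gene. The AARS1 window is at chr16:70289662-70289729 on the minus strand, and its match, 187 bases before the start, is the farthest from the start of its window's transcript among these genes. For IARS1, at chr9:92293679-92293746 on the minus strand, the match begins 13 bases before the start. CARS1, TARS1, AARS1 and IARS1 share the same 8 letters, TTGCATCA, and the match in GARS1 reads TTTCATCA. WARS1 and SARS1, which rose more at 7 h than AARS1 and IARS1, held no match, and YARS1, which also did, had no window. A match is a string of letters, and binding was not measured here.

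Depth in the listed genes ranged from 27731776 to 45811965 reads, and 1 read equalled 0.0209 to 0.0430 CPM, the reads scaled to a common library size as deposited. Paired libraries differed beyond counting error (chi-square 2.79 to 3.62 per degree of freedom). The labels do not say whether they were separate cultures, and the p-values therefore reflect a spread that may be technical. The letters A and B tell the libraries of a group apart and have no order. Fewer cells and less RNA per cell cannot be told apart in such bulk RNA. All 5 markers fixed for the line (VIM, CD44, NES, TNC, SPARC) were well above the filter in every library, with a summed level of 10021 to 12052 CPM. At 7 h the sum was 10366 to 10515 CPM in treated cells and 11879 to 12052 CPM in regular culture. At that time 0 were called higher and 4 lower in treated cells, beside 41.1% of all genes lower. With libraries scaled to the total of listed genes or by quantile normalization, 5 were lower. At 1 h, 3 were called lower, beside 20.7% of all genes. Of 14 markers of other cells, 5 were in the table (CD68, VWF, GFAP, RBFOX3, SNAP25). Their summed level was 30.0 to 30.2 CPM in regular culture and 32.5 to 32.6 CPM in treated cells at 1 h. At 7 h it was 26.8 to 29.1 CPM in regular culture and 65.2 to 70.3 CPM in treated cells. All 5 were called higher in treated cells at that time (4 with libraries scaled to the total of listed genes), beside 40.5% of all genes. RBFOX3, a neuronal splicing factor, had the largest such rise (log2 fold change 5.60). The part of these genes in the changes of the synthetases was not tested.

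At 7 h most cytosolic synthetase genes were higher in treated cells and most mitochondrial ones lower. Of 19 cytosolic synthetase genes, 16 were higher in treated cells, 2 were lower and 1 did not pass, with a median log2 fold change of 0.93 (limma, Benjamini-Hochberg adjusted p under 0.05 over all genes). Of 15 mitochondrial genes, 5 were higher and 10 lower, with a median of -0.60. Across all 13028 genes tested, 40.5% were called higher and 41.1% lower at 7 h, with a median of -0.01. The cytosolic changes ran from -0.51 to 2.46 and the mitochondrial ones from -1.46 to 1.04. When each library was scaled to the total of its listed genes, which moved the median of all genes by -0.31, the split became 12 higher and 7 lower for cytosolic genes (median 0.61) and 2 higher and 10 lower for mitochondrial genes (median -0.91). The same scaling moved the share of all calls at 7 h that were higher from 49.7% to 29.3%.

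The summed level of the 19 cytosolic genes was 7316 and 7327 CPM in the treated libraries at 7 h. It was 3319 and 3307 CPM in regular culture at 7 h, 3340 and 3427 CPM in treated cells at 1 h, and 3058 and 3098 CPM in regular culture at 1 h. The 15 mitochondrial genes together gave 491 and 487 CPM in treated cells at 7 h, against 673 and 677 CPM in regular culture at 7 h, and between 608 and 611 CPM in the 4 libraries at 1 h. Treated cells at 7 h were thus apart from all other libraries, above them for the cytosolic sum and below them for the mitochondrial sum. A share of the reads in listed genes amounts to scaling each library to the total of those genes. By this share, the cytosolic sum was 0.613% and 0.620% in treated cells at 7 h and 0.318% to 0.373% in the other libraries. The corresponding mitochondrial share was 0.0412% in both treated libraries at 7 h and 0.0632% to 0.0712% elsewhere.

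The ratio of the cytosolic to the mitochondrial sum, in which a scaling per library cancels, was 15.0 ± 0.103 (SD, n = 2) in treated cells at 7 h. In regular culture at 7 h it was 4.91 ± 0.0344. At 1 h it was 5.55 ± 0.0760 for treated cells and 5.05 ± 0.0554 for regular culture. The log2 change of this ratio was 1.61 at 7 h and 0.14 at 1 h. These sums are dominated by the genes with the most reads, and no test was made on them.

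**Figure D1:**
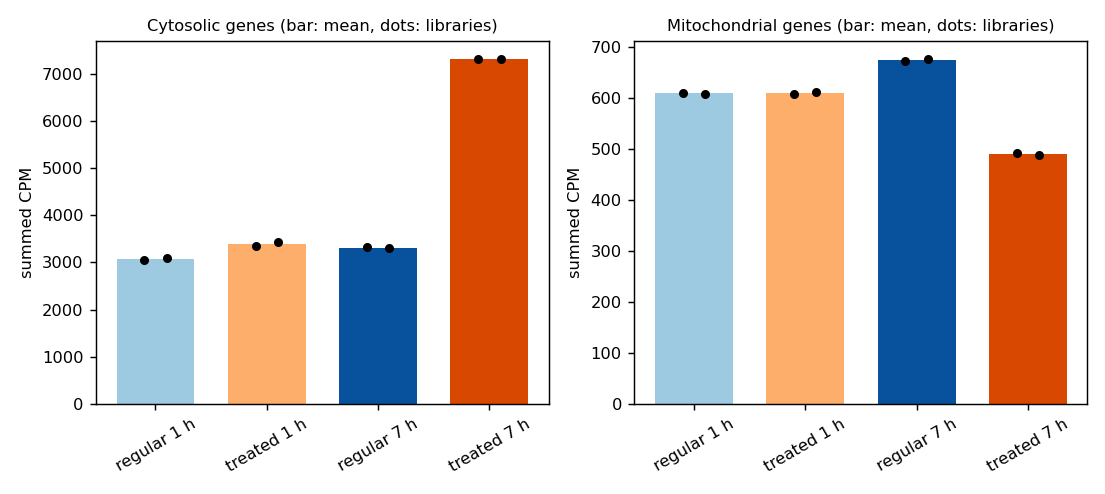
Summed level (CPM, axes from 0) of the 19 cytosolic genes on the left and the 15 mitochondrial genes on the right, with a bar for the mean of each group and a dot for each of its 2 libraries. Treated cells at 7 h reach 7316 and 7327 CPM for cytosolic genes and 491 and 487 CPM for mitochondrial genes.

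The largest cytosolic rises at 7 h were those of GARS1, WARS1, CARS1, YARS1 and TARS1. GARS1, the glycyl-tRNA synthetase of both cytosol and mitochondria, was at 1366 and 1386 CPM in treated cells at 7 h and at 254 and 246 CPM in regular culture. At 1 h it was at 318 and 325 CPM in treated cells and 245 and 243 CPM in regular culture. Treated libraries were above regular ones at both times, and the rise at 7 h was 5.50-fold (log2 fold change 2.46, SE 0.03; limma adjusted p = 1.01e-22).

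WARS1, the tryptophanyl-tRNA synthetase, known also as a gene that interferon gamma induces, was at 681 and 685 CPM in treated cells at 7 h and at 137 and 138 CPM in regular culture. At 1 h it was at 209 and 213 CPM against 193 and 194 CPM. The groups did not overlap at either time, and the change at 7 h was 4.96-fold (log2 2.31, SE 0.03; limma adjusted p = 2.89e-22). Regular culture itself was lower at 7 h than at 1 h for this gene by 0.49 log2 units (limma adjusted p = 4.62e-11).

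YARS1, the tyrosyl enzyme, stood at 524 and 512 CPM against 158 and 161 CPM at 7 h, and at 165 and 170.3 CPM against 129 and 136 CPM at 1 h. TARS1, the threonyl enzyme, stood at 616 and 595 CPM against 203 and 213 CPM at 7 h, and at 264 CPM in both treated libraries against 222 and 223 CPM at 1 h. Both rose at 7 h, YARS1 by 1.70 (SE 0.03) and TARS1 by 1.54 (SE 0.03) log2 units, and in neither did the groups overlap at either time. Groups of 2 libraries also lay apart at 1 h in members that were not called, such as MARS1 (0.02) and QARS1 (0.04). A share of all genes that lie apart is not given here, so lack of overlap is description only.

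CARS1, the cysteinyl-tRNA synthetase, had few reads and libraries that stood apart from their pair. It was at 17.9 and 29.9 CPM in treated cells at 7 h, 2.73 and 9.22 CPM in regular culture at 7 h, 6.82 and 10.3 CPM in treated cells at 1 h, and 4.38 and 3.87 CPM in regular culture at 1 h. The 2 regular libraries at 7 h held 131 and 418 of its reads. The groups did not overlap at 7 h, but the SE of its log2 fold change of 2.19 was 0.34 (limma adjusted p = 7.20e-06), the largest SE among the members. The change was 1.32 without regular library A and 3.06 without regular library B.

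**Figure D2:**
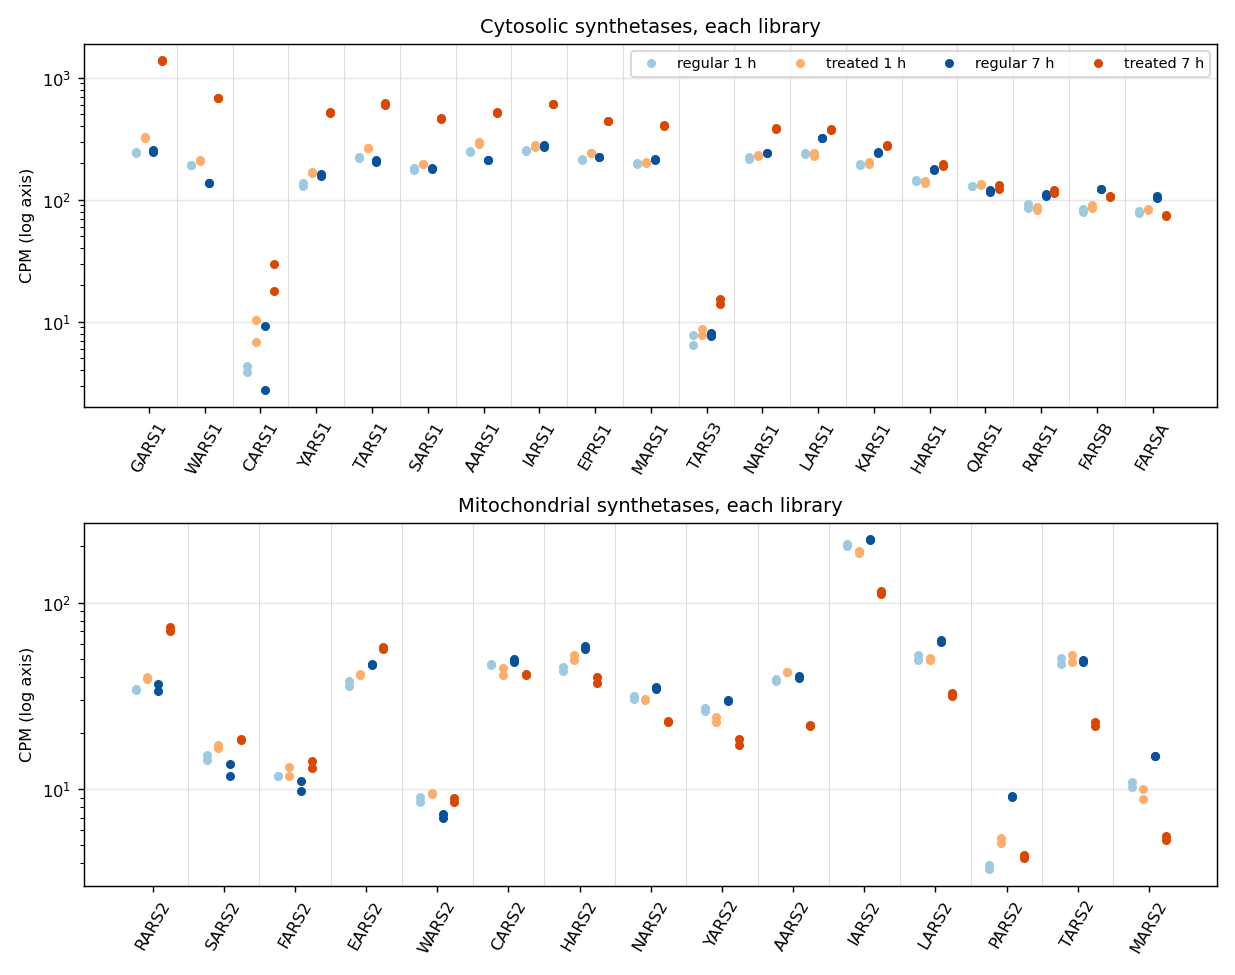
Level in CPM (log axis) of every cytosolic gene (top) and mitochondrial gene (bottom), ordered by change at 7 h, with 1 dot for each of the 8 libraries coloured by group. For GARS1 the treated libraries at 7 h lie at 1366 and 1386 CPM, far above the other 6, while for MARS2 they lie at 5.59 and 5.30 CPM, below the other 6.

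Beyond these 5, another 7 cytosolic genes rose by more than 0.6 log2 units at 7 h. SARS1, the seryl enzyme, went from 179 ± 2.84 to 461 ± 5.46 CPM (n = 2), AARS1, the alanyl enzyme, from 213 ± 0.305 to 519 ± 11.1 CPM, and IARS1, the isoleucyl enzyme, from 276 ± 4.91 to 613 ± 3.22 CPM. Their log2 fold changes were 1.36, 1.28 and 1.15. EPRS1, which joins the glutamyl and prolyl enzymes in 1 protein, rose by 0.99, MARS1, the methionyl enzyme, by 0.93, and NARS1, the asparaginyl enzyme, by 0.68. TARS3, a second threonyl enzyme with few reads, was at 7.80 ± 0.300 CPM in regular culture and 14.7 ± 0.913 CPM in treated cells (log2 fold change 0.91, SE 0.10). All 7 were called higher with limma, beside 40.5% of all genes, and kept that direction under the other scalings. They were chosen by the size of this same change, so the calls add no separate support.

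The 7 catalytic enzymes of the multisynthetase complex among the members had a lower median change than the other cytosolic ones, a difference that was not tested. In the complex, 6 of 7 were called higher and 1 was not called at 7 h (40.5% of all genes were called higher and 41.1% lower), with a median of 0.23, and under scaling to the total of listed genes the count became 3 higher and 4 lower with a median of -0.08. Outside it, 10 of 12 were higher and 2 lower, with a median of 1.32, or 9 and 3 with a median of 1.01 under that scaling. IARS1, EPRS1 and MARS1 carried the larger rises of the complex. KARS1, the lysyl enzyme of both compartments, was at 282 and 274 CPM in treated cells at 7 h against 247 and 242 CPM in regular culture, and at 195 and 205 CPM against 192 and 196 CPM at 1 h. Its groups were apart at 7 h and overlapped at 1 h, and its log2 fold change of 0.19 at 7 h (limma adjusted p = 4.60e-05) turned to -0.13 under scaling to the total and to -0.03 under quantile normalization. LARS1, the leucyl enzyme (0.23), and QARS1, the glutaminyl enzyme (0.10), were also called higher, but turned to -0.08 and -0.21 under scaling to the total.

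RARS1, the arginyl enzyme of the complex, was the only member not called at 7 h. It was at 113 and 120.2 CPM in treated cells and 108 and 111 CPM in regular culture at 7 h, and at 81.9 and 86.6 CPM against 85.6 and 91.8 CPM at 1 h. The log2 difference of 0.09 at 7 h (SE 0.04; limma adjusted p = 0.0662) turned to -0.23 under scaling to the total, and without treated library A it was 0.14 with an adjusted p of 0.0225. HARS1, the histidyl enzyme, which is not part of the complex, was called higher by 0.11 at 7 h, but missed the threshold when either regular library B or treated library A was left out and turned to -0.20 and -0.04 under the other scalings. The call for QARS1 was likewise lost when either of these libraries was left out (0.08 without regular B, 0.05 without treated A).

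The subunits of the phenylalanyl enzyme were the cytosolic members called lower. FARSA, the alpha subunit, was at 73.6 and 74.4 CPM in treated cells at 7 h against 107 and 104 CPM in regular culture, and at 81.8 and 83.4 CPM against 78.5 and 81.3 CPM at 1 h. FARSB, the beta subunit, was at 106 and 108 CPM against 122 CPM in both regular libraries at 7 h, and at 86.3 and 90.9 CPM against 80.1 and 84.1 CPM at 1 h. The treated libraries at 7 h lay below regular culture of the same time for both, while for FARSB they lay above both groups at 1 h. Their log2 fold changes at 7 h were -0.51 for FARSA (limma adjusted p = 2.05e-10) and -0.19 for FARSB (0.000163), and both genes also rose between 1 h and 7 h of regular culture.

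Among mitochondrial enzymes, the 5 largest changes at 7 h included 4 falls. MARS2, the methionyl enzyme, was at 5.59 and 5.30 CPM in treated cells against 15.0 and 15.1 CPM in regular culture at 7 h, and at 9.97 and 8.88 CPM against 10.2 and 10.9 CPM at 1 h. TARS2, the threonyl enzyme, was at 22.8 and 21.7 CPM against 47.9 and 49.1 CPM at 7 h, and at 47.8 and 52.5 CPM against 46.8 and 50.1 CPM at 1 h. At 7 h both were below every other library, and the log2 fold changes were -1.46 (SE 0.09) for MARS2 and -1.12 (SE 0.05) for TARS2.

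PARS2, the prolyl enzyme, was at 4.43 and 4.28 CPM in treated cells and at 9.04 and 9.16 CPM in regular culture at 7 h. At 1 h it was at 5.14 and 5.47 CPM in treated cells against 3.92 and 3.72 CPM in regular culture. The fall at 7 h (log2 fold change -1.05; limma adjusted p = 4.23e-08) stood against a regular level that was 1.24 log2 units higher at 7 h than at 1 h (limma adjusted p = 1.31e-08), the largest change in regular culture among the members. The treated libraries at 7 h were above those of regular culture at 1 h.

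LARS2, the leucyl enzyme, fell with them. Its level was 31.5 and 32.6 CPM in treated cells against 61.4 and 62.8 CPM at 7 h, and 50.5 and 49.2 CPM against 52.6 and 49.3 CPM at 1 h. The log2 fold change at 7 h was -0.95 (SE 0.05; limma adjusted p = 3.15e-13), and its groups overlapped at 1 h. The other mitochondrial genes called lower at 7 h were IARS2 (-0.93), AARS2 (-0.86), YARS2 (-0.74), NARS2 (-0.60), HARS2 (-0.58) and CARS2 (-0.25), which charge isoleucine, alanine, tyrosine, asparagine, histidine and cysteine. IARS2, the highest of the class per kilobase in regular culture, went from 217 ± 2.00 to 114 ± 2.54 CPM.

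Against this, 5 mitochondrial genes were called higher at 7 h. RARS2, the arginyl enzyme, was at 73.6 and 70.6 CPM in treated cells against 36.4 and 33.7 CPM in regular culture at 7 h, and at 39.6 and 38.8 CPM against 33.9 and 34.6 CPM at 1 h. Treated libraries were higher at both times, and the change at 7 h was 2.06-fold (log2 1.04, SE 0.05; limma adjusted p = 1.79e-13). In regular culture its level at 7 h overlapped that at 1 h.

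SARS2, the seryl enzyme, was at 18.2 and 18.5 CPM against 11.8 and 13.5 CPM at 7 h, and at 17.1 and 16.7 CPM against 14.3 and 15.3 CPM at 1 h. FARS2, the phenylalanyl enzyme, was at 13.0 and 14.2 CPM against 9.77 and 11.0 CPM at 7 h, and at 11.7 and 13.1 CPM against 11.8 and 11.7 CPM at 1 h. In both the groups were apart at 7 h, with log2 fold changes of 0.54 and 0.38 (limma adjusted p = 2.69e-06 and 0.000478), but FARS2 was at 0.07 and no longer called with libraries scaled to the total (limma adjusted p = 0.478). EARS2, the glutamyl enzyme (0.29), and WARS2, the tryptophanyl enzyme (0.28), were the other genes called higher, both turned to -0.03 under scaling to the total, and WARS2 was not called without regular library B (0.25).

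Changes at 1 h were small. Of 19 cytosolic genes, 10 were called higher and 0 lower in treated cells, with a median log2 fold change of 0.11. The limma count of lower genes was 0 also at an unadjusted p under 0.05 and with voom weights on recovered reads. This compares with 17.7% of all genes called higher and 20.7% called lower and a median of 0.01 over all genes. Of 15 mitochondrial genes, 5 were higher and 2 lower, with a median of 0.08. The largest cytosolic changes were in CARS1 (1.02, SE 0.34; limma adjusted p = 0.0226) and GARS1 (0.40, SE 0.03; 1.81e-09), followed by YARS1 (0.34), TARS1 (0.25), AARS1 (0.23), EPRS1 (0.17), SARS1 (0.14), WARS1 (0.13), FARSB (0.11) and IARS1 (0.11). All were below 1.5-fold except CARS1, which was not called without regular library A (1.11), regular library B (0.93) or treated library B (0.72). Leaving out regular library A ended the calls for FARSB (0.07) and IARS1 (0.09) too, as did leaving out treated library B (0.07 and 0.08), and FARSB also missed the threshold without either regular library of 7 h, which left its value at 0.11.

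The largest mitochondrial changes at 1 h were those of PARS2 (0.47, SE 0.11; limma adjusted p = 0.00241) and HARS2 (0.21, SE 0.05; 0.00262). HARS2 was at 52.5 and 49.1 CPM in treated cells against 42.9 and 44.9 CPM in regular culture at 1 h, and at 37.2 and 39.7 CPM against 58.8 and 56.5 CPM at 7 h. Its treated libraries were thus above regular culture at 1 h and below it at 7 h. RARS2 (0.19), EARS2 (0.16) and AARS2 (0.15) were also called higher, and YARS2 (-0.19) and IARS2 (-0.13) lower. Some of these calls were lost without single libraries of 1 h, and only 3 mitochondrial genes were called higher without treated library A or B. HARS2 was then at 0.16 (without treated A), EARS2 at 0.12 and 0.14 (without regular A and treated B), and AARS2 at 0.13, 0.15 and 0.15 (without regular B, treated A and treated B). YARS2 was at -0.16 and -0.14 (without regular B and treated A) and IARS2 at -0.10 and -0.11 (without regular A and treated A).

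A test of the difference between the changes at 7 h and at 1 h called 16 of 19 cytosolic genes higher and 2 lower, with a median of 0.81, and 3 of 15 mitochondrial genes higher and 9 lower, with a median of -0.56. Under scaling to the total the cytosolic count was 10 higher and 7 lower, and 1 mitochondrial gene was higher. Over all genes, 36.7% were called higher and 37% lower in this comparison. WARS1 had the largest difference (2.18, limma adjusted p = 3.97e-19), with GARS1 next (2.06). PARS2 (-1.52), AARS2 (-1.01) and HARS2 (-0.79) were called higher at 1 h, lower at 7 h and lower in the difference itself. FARSB shared this order with a difference of -0.30. The 1 h and 7 h changes use different libraries, while the difference uses those of both.

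**Figure D3:**
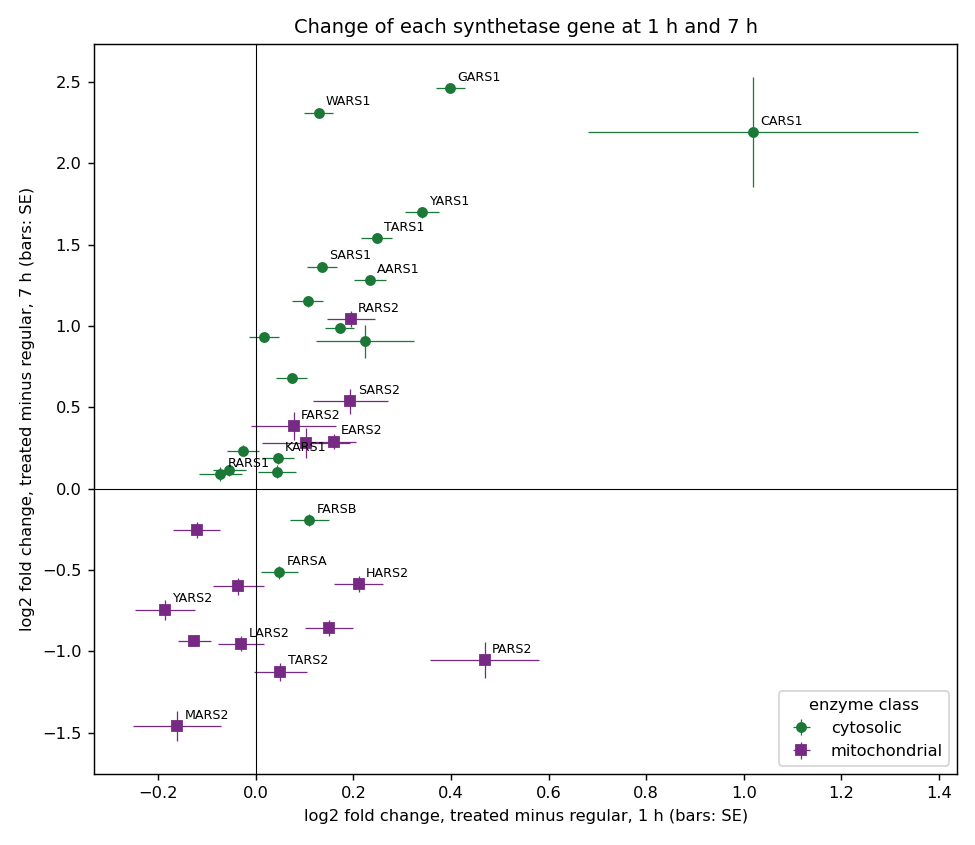
Log2 fold change (treated minus regular culture) of each of the 34 genes at 1 h (horizontal) and 7 h (vertical), green circles for cytosolic and purple squares for mitochondrial enzymes, with bars of 1 SE. GARS1 and WARS1 lie at the top (2.46 and 2.31 at 7 h), MARS2 at the bottom (-1.46), CARS1 has the widest bars, and KARS1, HARS1, LARS1, QARS1, RARS1, EARS2 and WARS2 lie above 0 at 7 h but below it under scaling to the total of listed genes.

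Each cytosolic gene was set against the mitochondrial gene for the same amino acid in 16 pairs, since a scaling per library cancels in their ratio. At 7 h the ratio was higher in treated cells in 13 pairs and lower in 3, with a median log2 change of 1.65. In each case the libraries did not overlap. Of all single genes, a different measure, 40.5% were called higher and 41.1% lower at this time. The share of all gene pairs that lie apart in this way was not computed, so the pair counts have no background. TARS1 over TARS2 had the largest mean change, 2.67 log2 units or 6.35-fold. At 7 h its log2 ratio was 4.75 and 4.78 in treated cells against 2.08 and 2.12 for regular culture, and 2.46 and 2.33 against 2.24 and 2.16 at 1 h. YARS1 over YARS2 and CARS1 over CARS2 followed at 2.44 each, then MARS1 over MARS2 at 2.39 and AARS1 over AARS2 at 2.14. The value for CARS1 over CARS2 rested on single libraries: it was 1.60 without regular library A and 3.29, above that of TARS1 over TARS2, without regular library B. In these 5 pairs the cytosolic gene was called higher and its mitochondrial partner lower.

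The 3 pairs that went the other way belonged to arginine and phenylalanine. RARS1 over RARS2 changed by -0.95, from 1.56 and 1.72 in regular culture to 0.62 and 0.77 in treated cells on the log2 scale. FARSA over FARS2 changed by -0.90, from 3.45 and 3.23 to 2.50 and 2.39, and FARSB over FARS2 by -0.58. FARSA and FARSB are set against the same mitochondrial gene, and EPRS1 enters 2 pairs, so the 16 pairs are not independent. At 1 h the ratio was higher in 11 pairs (7 without overlap) and lower in 5 (4 without overlap), with a median of 0.03. Of all single genes, 17.7% were called higher and 20.7% lower at this time, and a share over all gene pairs was again not computed.

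**Figure D4:**
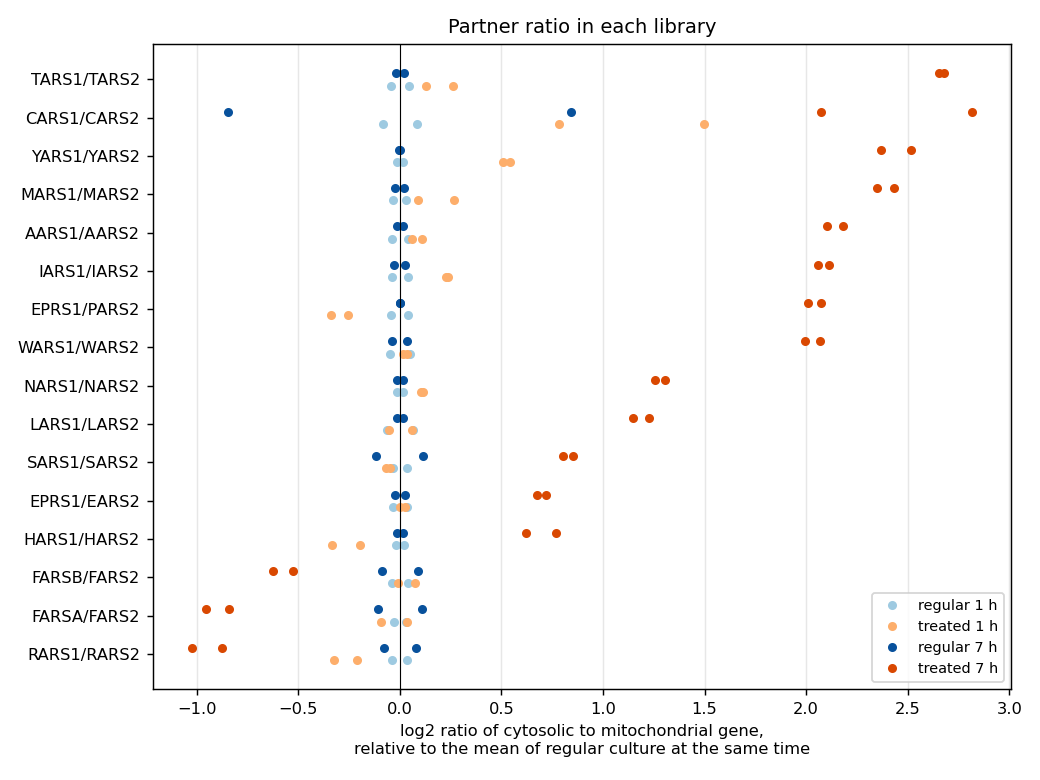
Log2 ratio of the cytosolic to the mitochondrial gene for each of 16 pairs (rows), as the difference from the mean of regular culture at the same time, with 1 dot per library coloured by group. In treated cells at 7 h, 13 pairs lie above 0, up to TARS1 over TARS2 (mean change 2.67), and RARS1 over RARS2, FARSA over FARS2 and FARSB over FARS2 lie below it.

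Per kilobase of the principal GENCODE 29 transcript, levels in regular culture at 7 h ran from 2.16 to 122 CPM per kb for cytosolic genes, with a median of 58.3, and from 2.56 to 61.0 CPM per kb for mitochondrial genes, with a median of 13.1. The highest were KARS1 (122), SARS1 (96.7) and GARS1 (95.0 CPM per kb), and the lowest cytosolic genes were TARS3 (2.16) and CARS1 (2.23 CPM per kb). SARS1 at 97.8 and 95.7 and GARS1 at 96.5 and 93.4 CPM per kb overlapped between libraries, so their order was not resolved. Nor was that of TARS3, at 2.22 and 2.10, and CARS1, at 1.02 and 3.44 CPM per kb. IARS2 was the highest mitochondrial gene (61.0 CPM per kb), close to IARS1 (59.3 CPM per kb).

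In treated cells at 7 h the median level was 125 CPM per kb for cytosolic and 8.41 CPM per kb for mitochondrial genes. GARS1 became the highest of all members at 522 CPM per kb, followed by SARS1 (249) and WARS1 (221), and KARS1 stood at 139 CPM per kb. RARS2, at 39.7 CPM per kb, was then above IARS2, at 31.9 CPM per kb, as the highest mitochondrial gene. The transcripts used in these cells were not measured, so the lengths are those of the annotation.

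In regular culture alone, 7 h against 1 h, 11 of 19 cytosolic genes were higher and 4 lower (median log2 change 0.13), and 8 of 15 mitochondrial genes were higher and 2 lower (median 0.10), while 30.7% of all genes were called higher and 30.8% lower. The 7 h regular libraries of this comparison are also the controls of the treated libraries at 7 h. FARSB (0.57), LARS1 (0.41) and FARSA (0.40) rose most among cytosolic genes and WARS1 fell most (-0.49). PARS2 (1.24) and MARS2 (0.51) led the mitochondrial genes. The value for CARS1 was not called (0.29) and became -0.58 without regular library B at 7 h and 1.15 without regular library A. The count of mitochondrial genes called higher was 5 without regular library B at 7 h, and that of genes called lower was 1 without regular library A of 7 h or either library of 1 h.

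Reads could be shared between some of these genes and others where sequences are alike or, since the kit marks no strand, where genes overlap. Larger overlaps of whole genes, introns included, were those of FARS2 with LYRM4 (11017 bases), EARS2 with GGA2 (3606 bases) and CARS2 with ING1 (900 bases). CARS1 overlaps CARS1-AS1, which is not among the listed genes, by 11867 bases. The part of these overlaps in the values was not tested. DDIT3, the stress gene that encodes CHOP, overlaps the end of MARS1 by 65 bases and rose in treated cells at both times, by 3.10 log2 units at 1 h and 4.34 at 7 h. MARS1 was at 202 and 203 CPM in treated cells at 1 h against 198 and 202 CPM in regular culture, a change of 0.02 that did not pass. At 7 h it was at 406 and 408 CPM against 216 and 211 CPM and was called higher by 0.93. The part of DDIT3 reads in the MARS1 values was not tested. HARS1 and HARS2 lie 84 bases apart on chromosome 5, and 23.4% and 15.7% of the 50-base windows of their transcripts were also found in other genes. For SARS2 this share was 86.9%, mostly with another annotated gene, AC011455.2, so its value is uncertain. It was 9.31% for YARS1, all with S100PBP, and 9.14% for WARS1, mostly with WDR25.

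Of 12 other charging genes in the table, 4 were called higher and 6 lower at 7 h, with a median of -0.14, beside 40.5% higher and 41.1% lower and a median of -0.01 over all genes. These counts lie near the shares over all genes. With libraries scaled to the total, 0 were higher and 9 lower, and the median was -0.45. GATB, a subunit of the mitochondrial amidotransferase, rose by 0.32, a call that did not hold with that scaling. DTD1, a D-aminoacyl-tRNA deacylase, rose by 0.22 and became -0.10 with libraries scaled to the total. DTD2, a further deacylase of this kind (-1.17), and MTFMT, which formylates the mitochondrial initiator tRNA (-1.07), fell most. The scaffold genes of the multisynthetase complex were split: AIMP2 (-0.63) and EEF1E1 (-0.32) were lower, and AIMP1 (0.18) was higher but became -0.14 with libraries scaled to the total.

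Of 6 cytosolic elongation factor genes, 5 were called higher and 1 lower at 7 h (median 0.64), where 40.5% of all genes were called higher and 41.1% lower, but under quantile normalization EEF1A1 and EEF2 turned negative, which left 3 and 3. EEF1A2, which delivers charged tRNA to the ribosome, rose by 1.38, EEF1G, a subunit of its exchange factor, rose by 0.85, and EIF5A fell by 0.42. Of 12 mitochondrial translation factor genes, 6 were higher and 3 lower (median 0.08) against the same shares over all genes, and under scaling to the total 2 were higher and 7 lower. GFM2, which recycles mitochondrial ribosomes, rose by 1.98 and MTRF1, a release factor, by 0.86, while TSFM, the exchange factor of the mitochondrial elongation factor Tu, fell by 1.14 and MTRFR, a ribosome rescue factor, by 1.01.

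Of 13 genes that mature mitochondrial tRNAs, 2 were higher and 8 lower at 7 h, with a median of -0.45, beside 40.5% higher and 41.1% lower over all genes. TRMT5, a tRNA methyltransferase (-1.32), and ELAC2, which cuts the 3′ end of tRNA precursors (-1.12), fell most. MTO1, which modifies the wobble base (0.50), and TRMT10C, a subunit of mitochondrial RNase P (0.29), were called higher, and TRMT10C became -0.03 under scaling to the total. Of 23 genes of the amino acid stress response, 21 were higher and 2 lower (median 1.68), and STC2 turned negative under scaling to the total. ATF3, a stress transcription factor (5.59), and TRIB3, a pseudokinase (5.26), had the largest differences, and ATF5, a transcription factor (-0.92), and ALDH18A1, an enzyme of proline synthesis (-0.66), fell. For ATF3 regular culture itself went from 218 and 204 CPM at 1 h to 6.24 and 6.44 CPM at 7 h (log2 change -5.04). Treated cells were at 209 and 196 CPM at 1 h, a difference that was not called, and at 313 and 301 CPM at 7 h. TRIB3 was at 1010.4 ± 17.4 CPM (SD, n = 2) in treated cells against 26.3 ± 0.488 CPM at 7 h. ATF4 was at 816 and 798 CPM in treated cells against 327 and 326 CPM in regular culture at 7 h, and at 562 and 579 CPM against 408 and 431 CPM at 1 h. Its treated libraries were higher at both times, by 1.31 log2 units at 7 h and 0.44 at 1 h.

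**Figure D5:**
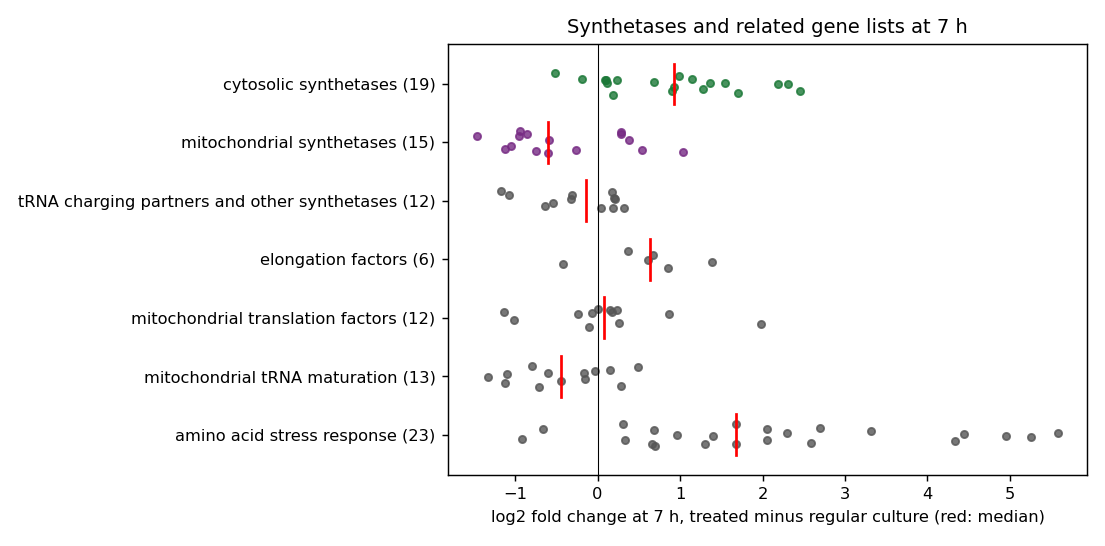
Log2 fold change at 7 h (treated minus regular culture) of each tested gene of 7 lists, with the number tested in brackets and a red line at the median. The medians are 0.93 for cytosolic and -0.60 for mitochondrial synthetases and 1.68 for the amino acid stress response, and the median of mitochondrial translation factors (0.08) falls below 0 under scaling to the total of listed genes (-0.24).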

How the data were processed

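RNA of 8 libraries was measured by sequencing. The SMART-Seq mRNA HT and Nextera XT kits were used, per the labels' protocols, and do not mark strand. HISAT2, edgeR and the build GRCh38 are named, per the submitters' processing notes. Their versions and the counting tool are not given in the sources used for this text. The deposited values are log2 CPM per gene with a prior, which the lowest value put at 0.0522 CPM. The steps between low values gave the CPM of 1 read, and 100% of values then lay within 0.1 read of a whole number. Library sizes behind the deposited values were 1.04 to 1.05 times the listed reads for regular culture, 1.09 times for treated cells at 1 h and 0.838 to 0.846 times for those at 7 h, so the authors had already scaled the libraries. Levels are CPM on that scale without the prior, and 3 reads, taken here as the floor, equal 0.0626 to 0.129 CPM.

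A gene needed 1 CPM or more in at least 2 libraries, which kept 13028 and removed 8. A model with 1 mean per group was fitted to the 8 libraries' log2 values as deposited, using limma 3.58.1 (R 4.3.3) with an intensity trend, 4 residual and 14.5 prior degrees of freedom. P-values are two-sided and adjusted by Benjamini-Hochberg over all genes, with a threshold of 0.05. Fold changes are on the scale of the deposited log2 values with their prior, so that of a gene with few reads is understated. A planned addition of 0.5 CPM was kept as an alternative because the values were already on a log scale. The procedure was run on simulated data in which a small part of the genes changed, as many up as down. At 7 h 40.5% of all genes were called higher and 41.1% lower, so that simulation does not test how the results depend on scaling. Column headings name the group and no replicate.

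The members and gene lists were chosen with earlier results of these data known. Values in every library are given for the 5 largest changes of each class at 7 h and the 2 largest at 1 h, for GARS1 and KARS1, for members against their class at 7 h (up to 3) and for members not called. Of each related list up to 2 genes in each direction are named, with ATF4. The AIMP genes, EEF1E1, DDIT3 and genes that turned with a scaling were added after their values were seen. A few genes of the related lists are not reported here and were left out of the counts. Gene positions and promoters are from RefSeq (GRCh38.p14), transcript lengths from GENCODE 29. A planned comparison of protein sequences was not made, and 50-base windows of transcripts were compared instead.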

Additional observations from a re-analysis of the deposited data

Results flagged for a closer look

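In 30 of the 34 members the change between treated and regular culture differed between 7 h and 1 h by a test of the difference itself (limma, adjusted p under 0.05). The values below are the log2 fold change at 7 h minus that at 1 h. Among cytosolic enzymes it was positive for WARS1 (2.18), GARS1 (2.06), YARS1 (1.36), TARS1 (1.29), SARS1 (1.23), CARS1 (1.17), AARS1 (1.05), IARS1 (1.04), MARS1 (0.91), EPRS1 (0.81), TARS3 (0.68), NARS1 (0.61), LARS1 (0.26), HARS1 (0.17), RARS1 (0.16) and KARS1 (0.14). It was negative for the 2 subunits of the phenylalanyl enzyme, FARSB (-0.30) and FARSA (-0.56). Among mitochondrial enzymes it was positive for RARS2 (0.85), SARS2 (0.34) and FARS2 (0.31), and negative for YARS2 (-0.56), NARS2 (-0.56), HARS2 (-0.79), IARS2 (-0.81), LARS2 (-0.92), AARS2 (-1.01), TARS2 (-1.17), MARS2 (-1.30) and PARS2 (-1.52). The difference for CARS1 rests on libraries that disagree within a pair (SE 0.48; limma adjusted p = 0.0342) and was 0.30 without regular library A at 7 h. The call for CARS1 was also lost without regular A (1.08), regular B (1.26) or treated A (0.87) at 1 h or treated B at 7 h (0.80). That for FARS2 was lost without regular A (0.30), regular B (0.31) or treated A (0.23) at 1 h, or regular A (0.22) or treated B (0.24) at 7 h. RARS1 was not called without regular B (0.11) or treated A (0.12) at 1 h, or regular A (0.14) or treated B (0.12) at 7 h. KARS1 was not called without treated A at 1 h (0.10) or regular B at 7 h (0.13), and SARS2 without regular A at 7 h (0.24). The 6 smallest positive differences, those of SARS2, FARS2, LARS1, HARS1, RARS1 and KARS1, turned negative when libraries were scaled to the total of listed genes. Over all genes 36.7% were called higher and 37% lower in this comparison. Groups of 2 libraries allow no check for single outlying libraries.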

How the results depend on the processing

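With libraries scaled to the total of listed genes, at 1 h 16 cytosolic genes were higher and 0 mitochondrial genes lower, with medians of 0.18 and 0.15. At 7 h that scaling gave 7 cytosolic genes lower, 2 mitochondrial genes higher and medians of 0.61 and -0.91. For the difference between times it gave 10 and 7 cytosolic genes higher and lower and 1 mitochondrial gene higher. It turned EARS2 (-0.028), HARS1 (-0.20), KARS1 (-0.13), LARS1 (-0.084), QARS1 (-0.21), RARS1 (-0.23) and WARS2 (-0.033) at 7 h, ended the call for FARS2 at 7 h (0.068), and turned in the difference EARS2 (-0.26), FARS2 (-0.078), HARS1 (-0.22), KARS1 (-0.24), LARS1 (-0.13), QARS1 (-0.32), RARS1 (-0.22) and SARS2 (-0.042). Quantile normalization turned HARS1 (-0.042) and KARS1 (-0.029) at 7 h and HARS1 (-0.080), KARS1 (-0.18) and LARS1 (-0.040) in the difference; it gave medians of 0.18 and 0.033 at 1 h and 0.75 and -0.54 at 7 h, changes of the summed ratio of 0.18 and 1.33, 1 mitochondrial gene lower at 1 h, and 2 cytosolic and 1 mitochondrial genes lower in regular culture. The share of calls over all genes that were higher at 1 h was 46.1%, and 68.3% and 57.8% under these scalings; for the difference it was 49.8% and 24.9% under scaling to the total, and for regular culture 49.99% and 57.5% under quantile normalization.

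Without the trend, 1 mitochondrial gene was lower at 1 h and 2 cytosolic genes were lower in regular culture. Tested against 1.2-fold, a stricter question, 1 cytosolic and 0 mitochondrial genes were higher and 0 mitochondrial genes lower at 1 h; 1 cytosolic gene was lower and 2 mitochondrial genes higher at 7 h; 1 of each likewise in the difference; and 3 of each class were higher and 1 cytosolic and 0 mitochondrial genes lower in regular culture. Filters, added CPM, voom weights and fits of 2 groups kept every class count within 1.5 times. Leaving out 1 library gave 3 to 6 mitochondrial genes higher and 1 to 2 lower at 1 h, 1 to 3 higher in the difference, and 5 to 8 higher and 1 to 2 lower in regular culture. Class medians then ran from 0.080 to 0.13 (cytosolic) and 0.00020 to 0.12 (mitochondrial) at 1 h and from 0.91 to 0.97 (cytosolic) at 7 h. CARS1 in regular culture turned to -0.58 without regular library B at 7 h. Unless stated above, the cause was not tested. The planned edgeR and DESeq2 fits were not run: the values are deposited as log2 CPM, and voom weights on the recovered reads were used for a fit that models read depth. No paired analysis was possible because the column headings carry no replicate numbers.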
